A study of Mus musculus with 6 samples.

Results

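The genes described here were 60 genes of DNA replication and cell division, taken from a fixed list of symbols and found among the 27179 genes of the deposited counts. The list held 22 genes of DNA replication, 13 regulators of the passage from G1 into S phase and 25 genes of mitosis. All 60 were found in each library and all passed the limit on low counts, which asked for 100 or more normalized reads on average across the 6 libraries. The list names its genes by symbol and sets no limit on a measured value, but it was drawn up with earlier results of these data known.

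RNA was sequenced from 3 immortalized lines of C57BL/6 mouse embryonic fibroblasts, which are connective tissue cells of the embryo, with 2 libraries per line. By genotype, Cry/Per_KO cells are cry1-/-, cry2-/-, per1-/- and per2-/-, Per/Nr1d_KO cells are per1-/-, per2-/-, nr1d1-/- and nr1d2-/-, and Cry/Per/Nr1d_KO cells carry the mutations of all 6 of these genes. All 3 lines thus carried mutations of Per1 and Per2, which encode Period repressors of the circadian clock, and they differed in the cryptochromes (CRY) and in the nuclear receptors NR1D1 and NR1D2. Cry/Per/Nr1d_KO cells were 1 clone made from Cry/Per_KO cells by CRISPR with lentiviral guides against Nr1d1 and Nr1d2, and the same guides had been used for Per/Nr1d_KO cells. The cells grew without synchronization in medium with 10% serum. Each line is a single cell line, so the p-values given here measure the spread between preparations of RNA from 1 line, and a difference between genotypes cannot be told apart from a difference between lines. Libraries held from 53764390 to 85927236 counts, scaled here to a common size and given as normalized reads. For 4 of the libraries the genotype label and the deposited name conflict: where the label says Cry/Per_KO the name says Cry/Per/Nr1d_KO, and the reverse. Here each pair is named by its label, as the pair labelled Cry/Per_KO or the pair labelled Cry/Per/Nr1d_KO. With the labels exchanged, the comparison between these pairs turns its sign, and the 2 comparisons with Per/Nr1d_KO cells change places. Labels and names give the same identity for the Per/Nr1d_KO libraries. The 6 mutated genes were transcribed in every library, at 1004 to 9337 normalized reads, and all 6 were higher, without overlap, in the pair labelled Cry/Per_KO than in the pair labelled Cry/Per/Nr1d_KO. NR1D proteins are known to repress Arntl and Cry1, so both genes bear on which pair lacks NR1D. Arntl had 1192 and 1171 normalized reads in the pair labelled Cry/Per/Nr1d_KO, 2176 and 2208 in the pair labelled Cry/Per_KO and 2493 and 2455 in Per/Nr1d_KO. Cry1 had 1698 and 1724 in the first of these pairs, 5323 and 5478 in the second and 1535 and 1592 in Per/Nr1d_KO. Both were lower in the pair labelled as lacking NR1D than in the pair labelled as keeping it, which goes against the labels and follows the deposited names. Every direction between these pairs, and the name of the pair that Per/Nr1d_KO is compared with, therefore rests on labels that these genes contradict. Of 9 fibroblast markers, 8 had a mean of at least 100 normalized reads and Thy1 was at or near 0. The summed level of these markers was 952878 to 1003530 normalized reads in the pair labelled Cry/Per/Nr1d_KO, 869144 to 895979 in the pair labelled Cry/Per_KO and 1800980 to 1825450 in Per/Nr1d_KO. Behind the higher sum in Per/Nr1d_KO, 5 of the 8 tested fibroblast markers were higher by the adjusted p in each comparison with it and 3, Vim, Pdgfra and Pdgfrb, were lower. The 12 markers of epithelial, leukocyte, endothelial, muscle and neural cells summed to 567.6 to 2245 normalized reads in the 6 libraries, most of it the neuronal tubulin Tubb3. Tubb3 was called lower in Per/Nr1d_KO than in the pair labelled Cry/Per/Nr1d_KO (log2 fold change -1.48) and higher than in the pair labelled Cry/Per_KO (0.90), and the macrophage marker Cd68 was called higher in both comparisons (1.14 and 0.81). The epithelial cadherin Cdh1 had 100.1 and 110.5 normalized reads in Per/Nr1d_KO and 7.99 to 27.8 in the other 4 libraries. The part of these marker levels in the results was not tested.

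A dividing cell passes through G1, copies its DNA in S phase and separates the copies in mitosis. D-type and E-type cyclins with their kinases lead to the release of E2F transcription factors, which switch on genes for replication. Later in the cycle the FOXM1 and MYBL2 factors switch on genes of mitosis, whose promoters often hold the CHR element and NF-Y sites. In unsynchronized cells fewer cells in a phase and less RNA per cell cannot be told apart.

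Most genes of mitosis were lower in Per/Nr1d_KO cells than in both other lines, and the D-type cyclins Ccnd1 and Ccnd2 were reduced most. The replication genes as a sum took a somewhat larger share of the counts than in either other line, but not evenly over their roles. Mitosis genes took 0.452% and 0.456% of the counts in the Per/Nr1d_KO libraries, against 0.663% and 0.678% in the pair labelled Cry/Per/Nr1d_KO and 0.687% and 0.670% in the pair labelled Cry/Per_KO. The 4 other libraries thus lay close together and the Per/Nr1d_KO pair lay below them. Replication genes took 0.411% and 0.419% of the counts in Per/Nr1d_KO, 0.388% and 0.377% in the pair labelled Cry/Per/Nr1d_KO and 0.353% and 0.356% in the pair labelled Cry/Per_KO. For this sum the Per/Nr1d_KO pair was the highest. Against the pair labelled Cry/Per/Nr1d_KO the rise was uneven. The median log2 fold change was 0.26 for the MCM2-7 helicase genes and 0.36 for nucleotide supply. It was 0.038 for origin recognition and loading, -0.022 for helicase activation and -0.029 for polymerases, clamp and clamp loader. The G1/S regulators took 0.130% and 0.128% in Per/Nr1d_KO, 0.228% and 0.222% in the pair labelled Cry/Per/Nr1d_KO and 0.210% and 0.214% in the pair labelled Cry/Per_KO.

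**Figure D1:**
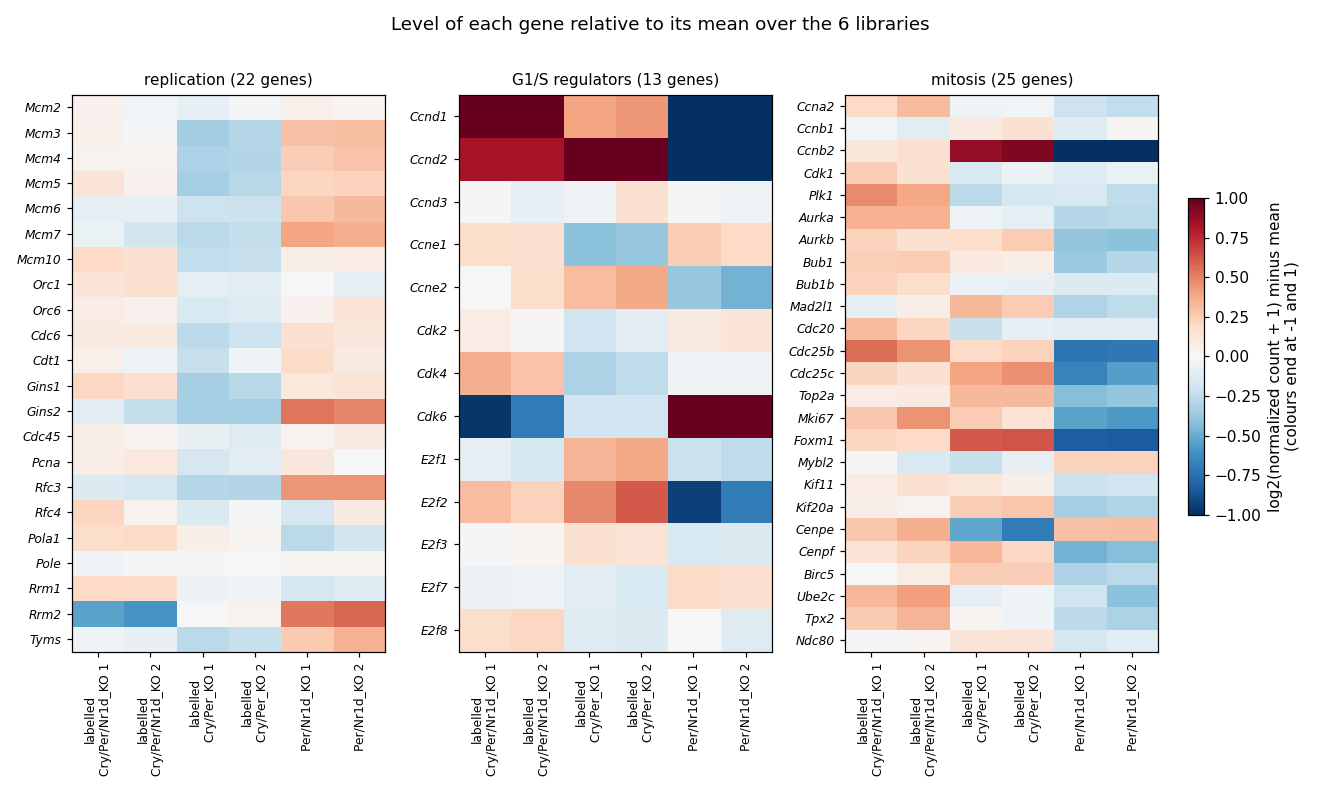
Level of each of the 60 genes in each of the 6 libraries (columns), as log2(normalized count + 1) minus the mean of the gene over the libraries, in 3 panels by class; red is above and blue below the mean, and colours end at -1 and 1. The Per/Nr1d_KO columns are blue for most mitosis genes and red for many replication genes, and Ccnd1 and Ccnd2 reach the end of the scale.

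Gene by gene, both Per/Nr1d_KO libraries lay below the other 4 libraries for 19 of the 25 mitosis genes, 6 of the 13 G1/S regulators and 2 of the 22 replication genes. Among all 11934 genes tested this held for 30.2%. Both lay above the other 4 for 12 replication genes, 4 G1/S regulators and 1 mitosis gene, where 32.7% of all genes tested did. The share of mitosis genes with both libraries below the others was above that of all genes and the share of replication genes was under it, a difference that was not tested.

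A gene was called when edgeR's quasi-likelihood test gave it an adjusted p below 0.05 and its level differed by more than 1.75-fold. Between Per/Nr1d_KO and the pair labelled Cry/Per/Nr1d_KO, 9 of the 60 genes were called, where 20.7% of all genes tested were (11.3% higher, 9.35% lower). These were Rrm2 and Cdk6, which rose, and Ccnd1, Ccnd2, E2f2, Ccnb2, Cdc25b, Mki67 and Foxm1, which fell. With the adjusted p alone, 22 of 25 mitosis genes were lower and 1 was higher, where 37.1% of all genes tested were lower and 38.7% higher (75.8% in either direction). By the same criterion 9 of 22 replication genes were higher and 4 lower, and 2 of 13 G1/S regulators were higher and 8 lower. The median log2 fold change was -0.49 over the mitosis genes, 0.051 over the replication genes and -0.14 over the G1/S regulators, against 0.011 over all genes tested.

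Between Per/Nr1d_KO and the pair labelled Cry/Per_KO, 10 of the 60 genes were called, where 29% of all genes tested were (15.2% higher, 13.8% lower). Gins2, Cdk6 and Cenpe rose, and Ccnd1, Ccnd2, E2f2, Ccnb2, Cdc25b, Cdc25c and Foxm1 fell. With the adjusted p alone, 19 mitosis genes were lower and 2 higher, where 39.3% of all genes tested were lower and 42.8% higher (82.1% in either direction). Of the replication genes 16 were higher and 2 lower, and of the G1/S regulators 5 were higher and 6 lower. The median log2 fold change was -0.29 over the mitosis genes, 0.34 over the replication genes and -0.078 over the G1/S regulators, against 0.035 over all genes tested. The comparisons share the Per/Nr1d_KO libraries and are not independent of each other. Of the 60 genes 15.0% and 16.7% were called in these comparisons, a difference from all genes that was not tested, and most of their changes were of less than 1.75-fold. Where 2 log2 fold changes of Per/Nr1d_KO are listed together and no order is stated, the first is against the pair labelled Cry/Per/Nr1d_KO and the second against the pair labelled Cry/Per_KO.

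**Figure D2:**
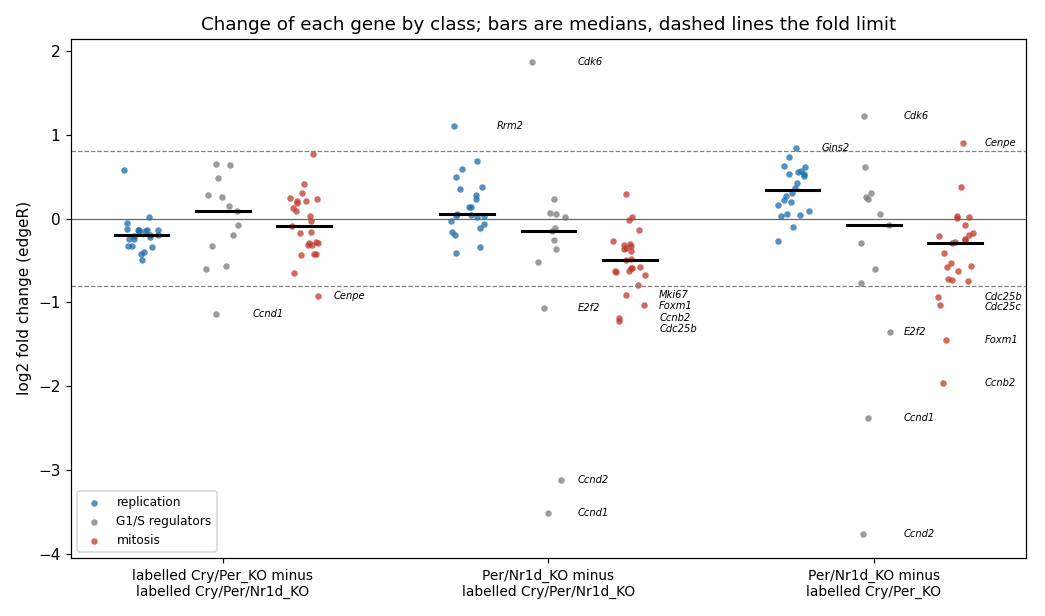
The log2 fold change of each gene (points) in the 3 comparisons, by class, with class medians as bars, called genes named and the fold limit as dashed lines. In both comparisons with Per/Nr1d_KO the mitosis median lies below 0 (-0.49 and -0.29), and Ccnd1 and Ccnd2 lie far below the other genes.

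The promoters of the classes differed in the letters they held. RefSeq windows on GRCm38.p6, from 250 bases before to 50 bases after the start, were in the table used here for 47 of the 60 genes, and not for Mcm4, Gins1, Gins2, Pole, Ccnd1, Ccnd2, Ccne2, Ccna2, Aurkb, Cdc25c, Foxm1, Kif20a and Tpx2. They were searched on both strands for the E2F letters TTTCCCGC, TTTCGCGC, TTTGCCGC and TTTGGCGC, for the CHR letters TTTGAA, for CCAAT, which NF-Y binds, for the E-box CACGTG, which CLOCK-BMAL1 binds, and for TNGGTCA, the core of the element that NR1D binds. E2F letters were in 9 of 18 replication promoters, 4 of 10 of the G1/S regulators and 1 of 19 of mitosis genes (5.26%), against 2.32% of all 27025 promoters and 4.37% of those of genes tested. CHR letters were in 12 of 19 mitosis promoters (63.2%), 2 of the replication class (11.1%) and 2 of the G1/S regulators, against 18.1% of all promoters and 11.4% of those of genes tested. CCAAT was frequent in both main classes, with 78.9% of mitosis and 77.8% of replication promoters against 37.9% of all. The E-box was in 3 of the 47 promoters, those of Cdk4, Cdk6 and Tyms, and 7.24% of all promoters held it. The letters TNGGTCA were in 4 replication promoters, 2 mitosis promoters and 0 of the G1/S regulators, where 10.9% of all held them. A match is a description of the sequence and does not show that a factor binds there.

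The 250 bases before the start are printed for 6 genes: Mcm5 at chr8:75109259-75109508 (plus strand) and Mcm6 at chr1:128359706-128359955 (minus strand) as replication promoters with E2F letters, Rrm2 at chr12:24708004-24708253 (plus strand) and Ccnb2 at chr9:70421555-70421804 (minus strand) as called genes of the 2 classes, Mki67 at chr7:135716380-135716629 (minus strand) as the proliferation marker, and Cdk4 at chr10:127063285-127063534 (plus strand) as the promoter with the most E-boxes. Capitals mark the E2F, CHR, CCAAT and E-box letters on either strand, and overlapping matches run together. For Mcm5 and Mki67 the start used for the window lies inside the span of the gene, so their last printed bases overlap it.
Mcm5: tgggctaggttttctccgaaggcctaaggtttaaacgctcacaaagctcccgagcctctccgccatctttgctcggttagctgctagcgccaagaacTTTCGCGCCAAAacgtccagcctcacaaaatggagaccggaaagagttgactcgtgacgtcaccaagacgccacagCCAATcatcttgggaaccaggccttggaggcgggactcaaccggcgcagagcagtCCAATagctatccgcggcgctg
Mcm6: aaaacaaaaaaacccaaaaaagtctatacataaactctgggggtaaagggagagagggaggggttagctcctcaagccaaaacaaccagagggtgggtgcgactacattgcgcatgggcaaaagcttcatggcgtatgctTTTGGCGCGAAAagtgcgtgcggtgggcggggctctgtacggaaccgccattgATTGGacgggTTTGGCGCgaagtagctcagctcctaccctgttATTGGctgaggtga
Rrm2: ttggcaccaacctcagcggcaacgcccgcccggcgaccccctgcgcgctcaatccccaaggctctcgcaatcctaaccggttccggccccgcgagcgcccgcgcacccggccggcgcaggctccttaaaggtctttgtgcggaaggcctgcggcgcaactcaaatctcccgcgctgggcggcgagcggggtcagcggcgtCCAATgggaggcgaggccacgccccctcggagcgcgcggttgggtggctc
Cdk4: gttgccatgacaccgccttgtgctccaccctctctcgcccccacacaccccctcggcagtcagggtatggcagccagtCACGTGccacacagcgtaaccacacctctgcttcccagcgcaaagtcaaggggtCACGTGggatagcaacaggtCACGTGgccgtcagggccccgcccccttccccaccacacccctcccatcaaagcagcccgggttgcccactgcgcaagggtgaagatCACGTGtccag
Ccnb2: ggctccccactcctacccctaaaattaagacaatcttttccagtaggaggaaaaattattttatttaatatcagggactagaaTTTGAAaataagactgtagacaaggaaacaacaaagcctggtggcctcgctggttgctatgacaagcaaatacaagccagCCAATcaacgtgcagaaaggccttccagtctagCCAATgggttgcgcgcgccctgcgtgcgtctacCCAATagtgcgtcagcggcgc
Mki67: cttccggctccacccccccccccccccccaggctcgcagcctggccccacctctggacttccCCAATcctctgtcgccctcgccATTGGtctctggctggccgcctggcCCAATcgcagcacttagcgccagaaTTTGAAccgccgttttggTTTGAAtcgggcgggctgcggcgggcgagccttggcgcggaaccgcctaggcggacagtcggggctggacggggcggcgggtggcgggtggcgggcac

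Mcm5 and Mcm6 hold E2F letters and CCAAT, Rrm2 holds CCAAT, Ccnb2 and Mki67 hold CHR letters and several CCAAT, and Cdk4 holds CACGTG at 4 places. Of the 47 genes, the 12 with E2F and without CHR letters had a median log2 fold change of 0.14 in Per/Nr1d_KO against the pair labelled Cry/Per/Nr1d_KO, with 9 above 0 and 3 below. The 14 genes with CHR and without E2F letters had a median of -0.44, with 2 above 0 and 12 below. The 2 above 0 were the replication genes Mcm2 (0.030) and Cdc45 (0.020). Over all genes tested, the medians were 0.0067 for the 359 genes with E2F letters alone and 0.0072 for the 1017 with CHR letters alone. Against the pair labelled Cry/Per_KO the medians of the 12 and the 14 genes were 0.34 and -0.22, and those of the 359 and 1017 genes were 0.039 and 0.032. Over all genes tested the medians of both sets were thus close to that of all genes. Among the members the letters largely followed the class. E2F letters were in 9 replication and 1 mitosis promoters, and CHR letters in 2 replication and 12 mitosis promoters. A split of the members by letters therefore cannot be told apart from the split by class.

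Among the replication genes, the 6 subunits of the MCM2-7 helicase, which unwinds DNA at the fork, were highest in Per/Nr1d_KO cells as a sum. Their sum was 42051 and 42465 normalized reads per kilobase of exon in Per/Nr1d_KO, 36168 and 34965 in the pair labelled Cry/Per/Nr1d_KO and 29609 and 30467 in the pair labelled Cry/Per_KO. The 3 pairs did not overlap. Of the 6 subunits 5 were higher in Per/Nr1d_KO by the adjusted p in both comparisons, and Mcm2 did not pass, with log2 fold changes of 0.030 against the pair labelled Cry/Per/Nr1d_KO and 0.085 against the pair labelled Cry/Per_KO. The widest change was that of Mcm7, with 0.50 and 0.63 in the same order. After subtraction of the median change of each chromosome, the values against the pair labelled Cry/Per/Nr1d_KO differed more. Mcm3, Mcm5 and Mcm6 were then at 0.00088, 0.042 and 0.10, and Mcm2, Mcm4 and Mcm7 at 0.11, 0.36 and 0.33. Per length, Mcm4 was the highest subunit and Mcm7 the lowest in all 6 libraries, at 1.66 to 2.13 times apart. Of the 50-base stretches of Mcm7, 23.3% also occur in other annotated genes.

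The genes that load the helicase at origins (Orc1, Orc6, Cdc6 and Cdt1) changed little against the pair labelled Cry/Per/Nr1d_KO. Their log2 fold changes in that comparison ran from -0.19 (Orc1) to 0.13 (Cdt1), and only Orc1 passed the adjusted p. Against the pair labelled Cry/Per_KO they ran from 0.053 (Orc1) to 0.37 (Cdc6), and all except Orc1 passed. Of the factors that activate the helicase, Gins2, a subunit of the GINS complex (Entrez Gene 272551, chr8:120581266-120589075), stood out. Gins2 had 3406 and 3112 normalized reads in the pair labelled Cry/Per/Nr1d_KO, 2904 and 2926 in the pair labelled Cry/Per_KO and 5326 and 5160 in Per/Nr1d_KO. The Per/Nr1d_KO libraries were the highest and did not overlap with the others. The log2 fold change was 0.68 ± 0.053 (SE, adjusted p = 1.2e-08) against the pair labelled Cry/Per/Nr1d_KO, under the fold limit, and 0.85 ± 0.053 (adjusted p = 6.8e-10) against the pair labelled Cry/Per_KO, which was called. This call was lost after subtraction of the median change of its chromosome (0.73). It was also lost when edgeR tested against the fold limit itself (glmTreat). Of the exon bases of Gins2, 70.7% lie on the strand opposite to exons of Gse1, and the sources used here do not state whether reads were counted by strand. Gse1 itself had log2 fold changes of 0.61 and 0.85 in these comparisons, so the counts of this pair cannot be told apart. Its partner Gins1 had log2 fold changes of -0.063 and 0.43 in the same order, and Cdc45 of 0.020 and 0.17.

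The sliding clamp Pcna (Entrez Gene 18538, chr2:132249286-132253180), often used as a marker of S phase, had 9401 and 9659 normalized reads in the pair labelled Cry/Per/Nr1d_KO, 7991 and 8344 in the pair labelled Cry/Per_KO and 9720 and 8967 in Per/Nr1d_KO. The Per/Nr1d_KO values enclosed the pair labelled Cry/Per/Nr1d_KO, and the pair labelled Cry/Per_KO was the lowest. Pcna in Per/Nr1d_KO had a log2 fold change of -0.029 ± 0.048 (adjusted p = 0.59) against the pair labelled Cry/Per/Nr1d_KO. Of the 50-base stretches of Pcna, 19.1% also occur in other annotated genes. The clamp loader subunit Rfc3 was higher in Per/Nr1d_KO by 0.60 and 0.73 on the log2 scale, while the subunit Rfc4 was not past the adjusted p in either comparison (-0.16 and 0.044). The polymerase gene Pola1 was lower by -0.41 and -0.27, and Pole did not pass (0.056 and 0.036).

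Ribonucleotide reductase, which makes the building blocks of DNA, has the large subunit RRM1 and the small subunit RRM2, and their genes differed in direction. Rrm2 (Entrez Gene 20135, chr12:24708254-24714146) had 7565 and 7279 normalized reads in the pair labelled Cry/Per/Nr1d_KO, 10919 and 11241 in the pair labelled Cry/Per_KO and 15769 and 16308 in Per/Nr1d_KO. The 3 pairs did not overlap, with Per/Nr1d_KO the highest. Rrm2 differed by a log2 fold change of 1.11 ± 0.044 (SE, adjusted p = 3.1e-12), or 2.16-fold, against the pair labelled Cry/Per/Nr1d_KO and 0.53 ± 0.043 (adjusted p = 1.5e-08) against the pair labelled Cry/Per_KO. Rrm1 was lower by -0.34 and -0.096 on the log2 scale, and the thymidylate synthase gene Tyms was higher by 0.36 and 0.55.

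The D-type cyclins, which activate CDK4 and CDK6 in G1 in response to growth factors, held the largest changes of the list. Ccnd1 (Entrez Gene 12443, chr7:144929931-144939831) had 27777 and 27621 normalized reads in the pair labelled Cry/Per/Nr1d_KO, 12421 and 12804 in the pair labelled Cry/Per_KO and 2441 and 2402 in Per/Nr1d_KO. Ccnd2 (Entrez Gene 12444, chr6:127125162-127152188) had 28778 and 28809 in the first pair, 44870 and 45546 in the second and 3440 and 3198 in Per/Nr1d_KO. Ccnd3 had 7409 and 6953, 7174 and 8174, and 7422 and 7131 normalized reads, listed by pair as before. For Ccnd1 and Ccnd2 the 3 pairs were separate with Per/Nr1d_KO the lowest, but the order of the other pairs was opposite between these cyclins, and for Ccnd3 all pairs overlapped.

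In Per/Nr1d_KO Ccnd1 was 11.4-fold lower than in the pair labelled Cry/Per/Nr1d_KO (log2 fold change -3.52 ± 0.046, adjusted p = 7.2e-18) and 5.21-fold lower than in the pair labelled Cry/Per_KO (-2.38 ± 0.045, adjusted p = 3.5e-16). Ccnd2 was 8.69-fold lower (-3.12 ± 0.049, adjusted p = 4.3e-17) and 13.6-fold lower (-3.77 ± 0.050, adjusted p = 6.4e-18). Among the 11934 genes tested Ccnd1 was number 244 from the lowest change in the first of these comparisons, and Ccnd2 was number 208 in the second. The log2 fold changes of Ccnd3 were 0.018 ± 0.058 (adjusted p = 0.79) and -0.078 ± 0.058 (adjusted p = 0.23). Of the exon bases of Ccnd1, 21.9% lie opposite to exons of another gene, and of Ccnd2 5.54%.

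Per kilobase of exon, the D-type cyclins summed to 14743 and 14520 normalized reads in the pair labelled Cry/Per/Nr1d_KO, 12939 and 13551 in the pair labelled Cry/Per_KO and 4199 and 4033 in Per/Nr1d_KO. The sum was thus similar in the first 2 pairs and far lower in the third. Ccnd1 made up 50.4% and 50.9% of it in the pair labelled Cry/Per/Nr1d_KO, Ccnd2 made up 51.7% and 50.1% in the pair labelled Cry/Per_KO, and Ccnd3 made up 72.2% and 72.3% in Per/Nr1d_KO. A different D-type cyclin was therefore the most abundant by length in each line.

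**Figure D3:**
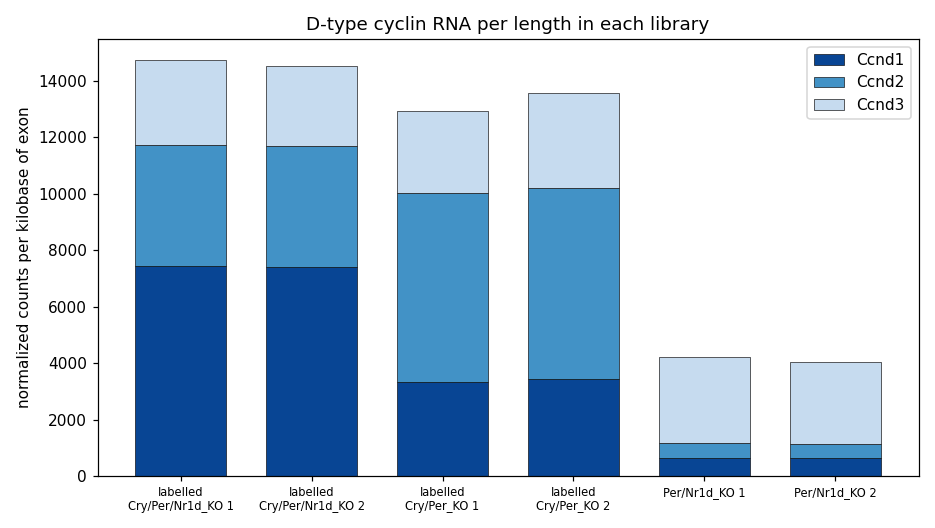
Normalized counts per kilobase of exon of Ccnd1, Ccnd2 and Ccnd3, stacked, in each of the 6 libraries (bars, 1 per library, without error bars). The bars of the Per/Nr1d_KO libraries reach 4199 and 4033, the others 12939 or more, and the Ccnd3 segments are of similar height throughout.

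Of the kinases that bind these cyclins, Cdk6 was higher in Per/Nr1d_KO in both comparisons, while Cdk4 was lower in one and higher in the other. Cdk6 (Entrez Gene 12571, chr5:3341004-3531008) had 287.7 and 347.6 normalized reads in the pair labelled Cry/Per/Nr1d_KO, 495.3 and 491.0 in the pair labelled Cry/Per_KO and 1186 and 1118 in Per/Nr1d_KO. The 3 pairs did not overlap, and the first had the widest gap between libraries of all 60 genes in that line, 0.27 on the log2 scale. Cdk6 was 3.64-fold higher in Per/Nr1d_KO than in the pair labelled Cry/Per/Nr1d_KO (log2 fold change 1.86 ± 0.094, adjusted p = 6.0e-11) and 2.33-fold higher than in the pair labelled Cry/Per_KO (1.22 ± 0.089, adjusted p = 4.2e-09). Cdk4 was far more abundant by length, with over 99% of the summed level of both kinases per kilobase in every library (99.5% to 99.9%). The log2 fold changes of Cdk4 in Per/Nr1d_KO were -0.36 and 0.24, both past the adjusted p, and those of Cdk2, the partner of cyclin E, were 0.066 (adjusted p = 0.21) and 0.26. Of the exon bases of Cdk4, 31.2% lie opposite to exons of Tspan31.

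The E-type cyclins, which act at the start of S phase, differed from each other. Ccne1 had log2 fold changes of 0.050 (adjusted p = 0.37) and 0.62, and Ccne2 of -0.51 and -0.77, in the comparisons of Per/Nr1d_KO with the pairs labelled Cry/Per/Nr1d_KO and Cry/Per_KO. Among the E2F factors, the activators E2f1, E2f2 and E2f3 were lower by the adjusted p in both comparisons, although E2f1 in the first (adjusted p = 0.044) was at 0.00059 after subtraction of the median change of its chromosome, and the repressors of E2F targets differed: E2f7 was higher (0.23 and 0.31), while E2f8 was lower in the first (-0.26, adjusted p = 0.00082) and did not pass in the second (0.061, adjusted p = 0.35). E2f2 (Entrez Gene 242705, chr4:136172274-136196057) had 775.1 and 735.2 normalized reads in the pair labelled Cry/Per/Nr1d_KO, 872.6 and 957.4 in the pair labelled Cry/Per_KO and 327.0 and 385.1 in Per/Nr1d_KO. It was lowest in Per/Nr1d_KO without overlap. Its log2 fold changes were -1.07 ± 0.095 (adjusted p = 6.6e-08) and -1.35 ± 0.094 (adjusted p = 2.5e-09), against -0.11 and -0.60 for E2f1 and -0.14 and -0.29 for E2f3.

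**Figure D4:**
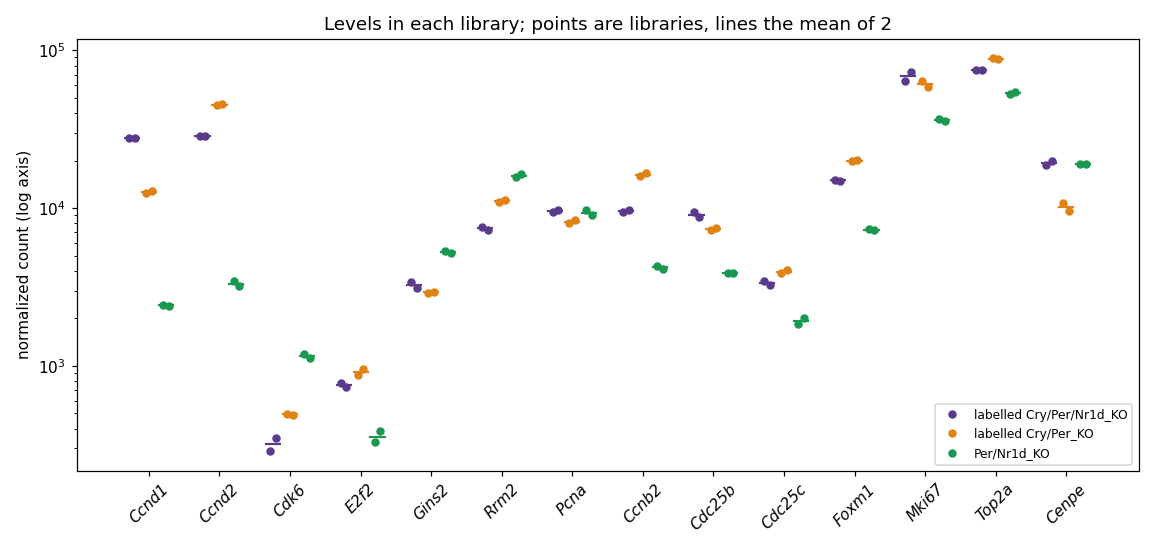
Normalized counts (log axis) of 14 genes in each library; points are libraries and lines the mean of the 2 libraries of a line, coloured by the label of the line. Per/Nr1d_KO is lowest for Ccnd1, Ccnd2, E2f2 and the mitosis genes except Cenpe, and highest for Cdk6, Gins2 and Rrm2.

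By role, most mitosis genes were lower in Per/Nr1d_KO by the adjusted p, 22 of 25 against the pair labelled Cry/Per/Nr1d_KO and 19 of 25 against the pair labelled Cry/Per_KO. In the second comparison Cdk1, Plk1, Cdc20 (0.035) and Bub1b (-0.072) did not pass, and Mybl2 and Cenpe were higher. The largest difference was that of Cdc25b in the comparison with the pair labelled Cry/Per/Nr1d_KO and that of Ccnb2, a B-type cyclin, in the comparison with the pair labelled Cry/Per_KO. Ccnb2 (Entrez Gene 12442, chr9:70407689-70421554) had 9410 and 9745 normalized reads in the pair labelled Cry/Per/Nr1d_KO, 15988 and 16582 in the pair labelled Cry/Per_KO and 4259 and 4136 in Per/Nr1d_KO. The 3 pairs were separate, with Per/Nr1d_KO the lowest and the pair labelled Cry/Per_KO the highest. Ccnb2 was 2.28-fold lower (log2 fold change -1.19 ± 0.045, adjusted p = 1.9e-12) and 3.88-fold lower (-1.96 ± 0.046, adjusted p = 3.9e-15) in Per/Nr1d_KO. Its paralog Ccnb1 had log2 fold changes of 0.021 ± 0.057 (adjusted p = 0.74) and -0.17 ± 0.057 (adjusted p = 0.015), and 23.4% of its 50-base stretches also occur in other annotated genes. Cdk1, the kinase of both cyclins, had -0.30 (adjusted p = 4.5e-05) and 0.011 (adjusted p = 0.84), and Ccna2 had -0.48 and -0.20, both past the adjusted p.

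Cdc25b, which removes the inhibitory phosphates of CDK1 (Entrez Gene 12531, chr2:131186436-131198511), had 9407 and 8716 normalized reads in the pair labelled Cry/Per/Nr1d_KO, 7280 and 7486 in the pair labelled Cry/Per_KO and 3856 and 3888 in Per/Nr1d_KO. It was lowest in Per/Nr1d_KO without overlap, by 2.34-fold (log2 fold change -1.23 ± 0.049, adjusted p = 3.5e-12) and 1.91-fold (-0.93 ± 0.049, adjusted p = 8.0e-11). Cdc25c, a phosphatase of the same family (Entrez Gene 12532), had 3424 and 3264 normalized reads in the first pair, 3871 and 4043 in the second and 1847 and 2002 in Per/Nr1d_KO. The Per/Nr1d_KO libraries were again the lowest. Cdc25c had a log2 fold change of -1.04 ± 0.057 (adjusted p = 1.3e-10) against the pair labelled Cry/Per_KO, which was called, and -0.79 ± 0.057 (adjusted p = 5.1e-09) against the others, just under the fold limit. The call against the pair labelled Cry/Per_KO was lost after subtraction of the median change of its chromosome.

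Foxm1, the factor that drives transcription of mitotic genes (Entrez Gene 14235, chr6:128362994-128375886), had 15093 and 14870 normalized reads in the pair labelled Cry/Per/Nr1d_KO, 19799 and 20065 in the pair labelled Cry/Per_KO and 7321 and 7295 in Per/Nr1d_KO. The pairs were separate and Per/Nr1d_KO was the lowest, by 2.05-fold (log2 fold change -1.04 ± 0.041, adjusted p = 3.3e-12) and 2.73-fold (-1.45 ± 0.041, adjusted p = 4.6e-14). Mybl2 was higher by the adjusted p (0.29 and 0.37), and was the only mitosis gene with both Per/Nr1d_KO libraries above the other 4. Of the 50-base stretches of Mybl2, 19.3% also occur in other annotated genes.

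The proliferation marker Mki67 (Entrez Gene 17345, chr7:135689784-135716450) had 64041 and 72438 normalized reads in the pair labelled Cry/Per/Nr1d_KO, 63388 and 58249 in the pair labelled Cry/Per_KO and 36727 and 35702 in Per/Nr1d_KO. The first 2 pairs lay close together without overlap, and Per/Nr1d_KO lay far below them. Mki67 had a log2 fold change of -0.91 ± 0.058 (adjusted p = 1.1e-09), which was called, and -0.75 ± 0.058 (adjusted p = 8.6e-09), under the fold limit. After subtraction of the median change of its chromosome only the second was called. The first was also lost under edgeR's glmTreat. Top2a, the topoisomerase that untangles sister chromosomes (Entrez Gene 21973, chr11:98992947-99024199), had 74518 and 75338, 88640 and 88347, and 52505 and 53968 normalized reads, listed by pair as before. It too was lowest in Per/Nr1d_KO, with log2 fold changes of -0.49 ± 0.042 (adjusted p = 4.1e-08) and -0.73 ± 0.042 (adjusted p = 2.3e-10).

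The mitotic kinases Plk1, Aurka and Aurkb and the survivin gene Birc5 were all lower by the adjusted p against the pair labelled Cry/Per/Nr1d_KO, from -0.64 (Plk1) to -0.32 (Birc5). Against the pair labelled Cry/Per_KO 3 of these were lower, and Plk1 did not pass (0.016, adjusted p = 0.78). The genes of the spindle checkpoint or acting with the anaphase-promoting complex were Bub1, Bub1b, Mad2l1, Cdc20 and Ube2c. All 5 were lower in the first comparison, from -0.67 (Ube2c) to -0.27 (Mad2l1), and 3 of 5 in the second. Of the exon bases of Ube2c, 22.8% lie opposite to exons of Tnnc2, and of the motor gene Kif20a 31.8% lie opposite to exons of Cdc23. Of the motors and the spindle and kinetochore genes, 5 of 6 were lower in each comparison, from -0.63 and -0.72 for Cenpf. The exception was Cenpe, a kinesin of the kinetochore (Entrez Gene 229841, chr3:135212563-135273540). Cenpe had 18661 and 19831 normalized reads in the pair labelled Cry/Per/Nr1d_KO, 10773 and 9551 in the pair labelled Cry/Per_KO and 18934 and 19090 in Per/Nr1d_KO. The pair labelled Cry/Per_KO was low and the other pairs overlapped. Cenpe in Per/Nr1d_KO had a log2 fold change of 0.90 ± 0.054 (adjusted p = 3.7e-10) against the pair labelled Cry/Per_KO and -0.017 ± 0.053 (adjusted p = 0.77) against the others.

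Cells of the pair labelled Cry/Per_KO were set against the pair labelled Cry/Per/Nr1d_KO. By label these pairs differ in Nr1d1 and Nr1d2 and share the mutations of the Cry genes, Per1 and Per2. Arntl and Cry1 contradict these labels, so the directions given here cannot be read as effects of NR1D. Here 2 of the 60 genes were called, where 16.8% of all genes tested were (7.86% higher, 8.95% lower). Both fell in the pair labelled Cry/Per_KO, Ccnd1 by 1.13 (adjusted p = 4.3e-12) and Cenpe by 0.92 (adjusted p = 7.5e-10) on the log2 scale. With the labels exchanged both would be higher in Cry/Per_KO cells, and every other direction between these pairs would turn too. With the adjusted p alone, 18 of 22 replication genes were lower and 1, Rrm2, was higher (0.58), where 38.3% of all genes tested were lower and 38.1% higher (76.4% in either direction). The MCM2-7 genes ran from -0.39 (Mcm5) to -0.056 (Mcm2). Of the mitosis genes 12 were lower and 9 higher, with Ccnb2 (0.77) and Foxm1 (0.41) the highest and, beside Cenpe, Plk1 (-0.65) the lowest. Among these mitosis genes Ccna2, Ccnb1, Bub1, Mad2l1, Cdc25c, Mki67 and Kif20a turned their sign after subtraction of the median change of their chromosome. Of the G1/S regulators 6 were higher, among them Ccnd2 (0.65), Cdk6 (0.64) and E2f1 (0.49), and 5 were lower, among them Cdk4 (-0.60) and Ccne1 (-0.57). The median log2 fold changes of the 3 classes were -0.20 (replication), 0.096 (G1/S regulators) and -0.083 (mitosis), against -0.0033 over all genes tested.

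The median change differed between chromosomes, which touches single members. The median log2 fold change of all genes tested on chromosome 3 was -0.65 in the pair labelled Cry/Per_KO against that labelled Cry/Per/Nr1d_KO, 0.24 in Per/Nr1d_KO against the pair labelled Cry/Per/Nr1d_KO and 0.88 in Per/Nr1d_KO against the pair labelled Cry/Per_KO. On chromosome 9 these medians were 0.38, -0.46 and -0.84. Cenpe and Ccna2 lie on chromosome 3, and Ccnb2 lies on chromosome 9. After subtraction of the chromosome's median, Cenpe was at -0.28 between the first 2 pairs and at 0.025 between Per/Nr1d_KO and the pair labelled Cry/Per_KO, and neither was called. Ccnb2 was then at -0.73 and -1.12 in the comparisons with Per/Nr1d_KO, the first of them no longer called. Ccna2 was at -0.72 and -1.08, the second of them called, and Cenpf, on chromosome 1, was at -0.91 and -0.98 and was called in both, where it had not been before. In the comparisons with Per/Nr1d_KO the class medians were then -0.50 and -0.40 for mitosis, with 24 and 22 of 25 genes below 0, 0.046 and 0.30 for replication, with 16 and 19 of 22 genes above 0, and -0.15 and -0.16 for the G1/S regulators, where the second had been -0.078. Between the other pairs they were -0.21 for replication, 0.037 for the G1/S regulators and -0.040 for mitosis. Ccnd1, Ccnd2, Cdk6, E2f2, Cdc25b and Foxm1 remained called in both comparisons with Per/Nr1d_KO, and Rrm2 in the first. Mki67 was at -0.81 and -0.90, with only the second called, and Gins2 (0.73) and Cdc25c (-0.59) were no longer called against the pair labelled Cry/Per_KO.

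**Figure D5:**
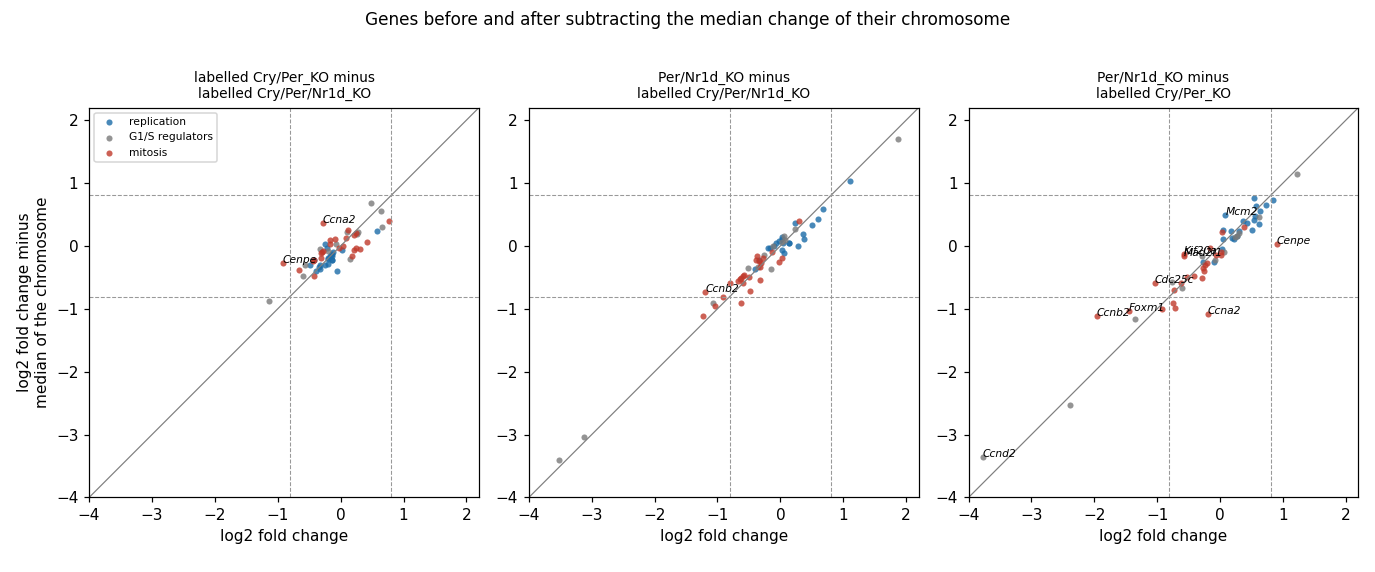
The log2 fold change of each gene (horizontal axis) against its value after subtracting the median of all genes tested on its chromosome (vertical axis), for the 3 comparisons; the diagonal marks no effect of the subtraction, dashed lines the fold limit, and genes moved by more than 0.4 are named. Cenpe moves from 0.90 to 0.025 in the right panel, while Ccnd1 and Ccnd2 stay far below the limit in both comparisons with Per/Nr1d_KO.

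Further genes of the same processes were counted from 3 other lists. Of 50 other mitosis genes, 37 were lower and 7 higher by the adjusted p in Per/Nr1d_KO against the pair labelled Cry/Per/Nr1d_KO (median log2 fold change -0.37), and 31 were lower and 12 higher against the pair labelled Cry/Per_KO (median -0.27). Of all genes tested 37.1% were lower and 38.7% higher in the first comparison and 39.3% and 42.8% in the second. Past the fold limit, where 9.35% and 13.8% of all genes tested fell in these comparisons, 5 of the 50 fell in the first, near that background, with Anln (-1.35), Kif23 (-1.18) and Spc24 (-0.93) the furthest, and 7, likewise near it, fell in the second, with Anln (-1.67), Spc24 (-1.47) and Kif15 (-1.18) the furthest, while Cks1b rose (1.12). Of these, 3 of the 5 and 5 of the 7 lie on chromosome 9. Cks1b lies on chromosome 3. After subtraction of chromosome medians the class median was -0.35 and -0.34, 5 genes were called lower in the first comparison, of which 2 had been before, with Kif23, Spc24 and Cdca3 lost and Kif14, Nek2 and Ect2 gained. In the second 3 were called lower, of which Anln had been before, with Ect2 and Smc4 gained, and Cks1b was no longer called. Of 46 other replication genes, 14 were higher and 19 lower in the first comparison (median 0.0080) and 21 higher and 16 lower in the second (median 0.063), with Tipin (-0.81) called in the first and Tipin (-1.24), Dnmt1 (-0.95) and Topbp1 lower and Orc2 (0.88) higher in the second. The 3 called lower in the second all lie on chromosome 9, and none of the calls of this list in these comparisons, Orc2 included, remained after subtraction of chromosome medians. The median of this wider list thus stayed near that of all genes tested. Between the other 2 pairs, where 38.1% of all genes tested were higher and 38.3% lower by the adjusted p and 16.8% were called, 13 of the other mitosis genes were higher and 20 lower, with Cks1b called (-1.04, a call lost after that subtraction), and 17 of the other replication genes were higher and 20 lower, with Dna2 called (-0.95).

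Of 26 other cell cycle regulators, 10 were higher and 12 lower by the adjusted p in Per/Nr1d_KO against the pair labelled Cry/Per/Nr1d_KO, and 11 and 12 against the pair labelled Cry/Per_KO. Of all genes tested 38.7% were higher and 37.1% lower in the first of these comparisons and 42.8% and 39.3% in the second, so the shares of this list lay near the background. Past the fold limit 5 rose and 2 fell in the first, where 11.3% of all genes rose and 9.35% fell, and 3 rose and 5 fell in the second, where 15.2% rose and 13.8% fell. In the pair labelled Cry/Per_KO against that labelled Cry/Per/Nr1d_KO, 13 were higher and 8 lower by the adjusted p, where 38.1% and 38.3% of all genes were. There 4 were called higher and 1 lower, where 7.86% and 8.95% of all genes were. After subtraction of chromosome medians 1 of the 4 remained called, as did the 1 called lower. The CDK inhibitor gene Cdkn1a, which encodes p21, had 5348 and 5166 normalized reads in the pair labelled Cry/Per/Nr1d_KO, 5997 and 6490 in the pair labelled Cry/Per_KO and 24464 and 24154 in Per/Nr1d_KO. It was highest in Per/Nr1d_KO without overlap, and rose with log2 fold changes of 2.21 and 1.96. Cdkn1c, another CDK inhibitor, had 20.42 and 19.99, 3.34 and 3.93, and 1191 and 1012 normalized reads, and Ccng1 rose in Per/Nr1d_KO by 1.97 and 1.53. Of the other CDK inhibitor genes, Cdkn2b was also higher by the adjusted p in both comparisons (0.44 and 0.51), under the fold limit. Cdkn2d, Cdkn1b and Cdkn2c (-0.14 and -0.57, not called) went the other way. Cdkn2d fell by 0.96 and 1.92 on the log2 scale, both called, and Cdkn1b had log2 fold changes of -0.79 and -1.50, the second of them called. The calls of both against the pair labelled Cry/Per_KO remained after subtraction of chromosome medians, and that of Cdkn2d in the first comparison did not. Cdkn2a, which encodes p16 and ARF, had 17841 and 16647, 17290 and 18984, and 19187 and 18811 normalized reads, with log2 fold changes of 0.14 (adjusted p = 0.021) and 0.067 (adjusted p = 0.23) in Per/Nr1d_KO. Wee1, the kinase that holds CDK1 inactive, had 4646 and 4813, 3947 and 4046, and 2607 and 2556 normalized reads and fell in Per/Nr1d_KO by 0.87 against the pair labelled Cry/Per/Nr1d_KO, a call lost after subtraction of chromosome medians, and by 0.63 against the pair labelled Cry/Per_KO, under the fold limit. The part of these genes in the levels of the replication and mitosis genes was not tested.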

How the data were processed

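RNA-seq counts of 6 libraries from 3 mouse embryonic fibroblast lines were used. The authors enriched poly-A RNA, prepared stranded libraries, aligned reads to mm10 by STAR and assigned them to genes by featureCounts. The deposited counts are raw whole numbers with Entrez Gene IDs. The strand setting of the counting is not given in the sources used here. The authors' DESeq2 tables (mean, log2 fold change, standard error, p-value and adjusted p-value for Cry/Per_KO and Per/Nr1d_KO against Cry/Per/Nr1d_KO) were not used.

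Groups followed the genotype labels. Of 27179 IDs, 25275 (93.0%) matched a symbol in the RefSeq table of GRCm38.p6. In R 4.3.3, edgeR 4.0.16 scaled the counts by TMM, genes averaging 100 or more normalized counts (11934 genes) entered 1 quasi-likelihood fit of 3 groups, and p-values were adjusted by Benjamini-Hochberg over all genes tested. Calls needed an adjusted p under 0.05 and a fold above 1.75. Normalized counts, called normalized reads in the text, are at the mean effective library size. The SE is the size of the log2 fold change over the square root of F. With totals of 53764390 to 85927236 counts, the spread of abundant genes came mostly from the biological coefficient of variation (0.0393). On simulated counts for Per/Nr1d_KO against Cry/Per/Nr1d_KO (11934 genes), edgeR recovered 99 of 99 genes changed 2-fold and 99 of 99 changed 4-fold. Both folds lay above the limit of 1.75 and all other genes were left unchanged. The simulation therefore does not bear on smaller changes or on data where most genes differ.

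The members, the other lists and the tests were chosen with earlier results of these data known. Values per library are given for members called in any comparison, the member with the largest change of each class, and Mki67, Pcna and Top2a, and for Ccnd3, added after its values were seen; of the other lists at most 3 called genes per list and comparison are named, plus Cdkn1a, Cdkn2a and Wee1. Topbp1, Cdca3, Kif14, Nek2, Ect2, Smc4, Cdkn1b, Cdkn2b, Cdkn2c, Arntl and the markers were named after their values were seen. So were Cdkn2d against the pair labelled Cry/Per/Nr1d_KO, and Cks1b and Ccng1 against the pair labelled Cry/Per_KO. Exon overlaps came from GENCODE vM21 and promoter windows from RefSeq. The alternatives tried were DESeq2 1.42.0, size factors by median of ratios, a filter at a mean of 10 and none, edgeR's glmTreat, calls without a fold limit, fits of the compared groups only, a block for replicate number, each library left out, exchanged genotype labels, and subtraction of chromosome medians.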

Additional observations from a re-analysis of the deposited data

How the results depend on the processing

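DESeq2, median-of-ratios size factors, both other expression filters, the compared groups alone and the replicate block changed no call of the 60 genes and turned no direction. The replicate numbers were not taken to pair the samples. Over all genes tested, the correlations of the differences between replicates 1 and 2 were -0.21, -0.10 and -0.024 between lines. Over the 60 genes they were -0.63 between the 2 labelled pairs. With Per/Nr1d_KO they were -0.33 for the pair labelled Cry/Per/Nr1d_KO and 0.030 for the pair labelled Cry/Per_KO. The replicate block gave 2002, 2468 and 3457 called genes against 2006, 2468 and 3457.

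Comparison 1 is labelled Cry/Per_KO against labelled Cry/Per/Nr1d_KO, comparison 2 is Per/Nr1d_KO against the latter and comparison 3 is Per/Nr1d_KO against the former. With no limit on the fold the called replication, G1/S and mitosis genes numbered 19, 11 and 21 in comparison 1, 13, 10 and 23 in comparison 2, and 18, 11 and 21 in comparison 3, where 76.4%, 75.8% and 82.1% of all genes tested were called in comparisons 1, 2 and 3. Under glmTreat 0 mitosis genes in comparison 1 and 0 replication genes in comparison 3 were called, where Cenpe and Gins2 lay near the fold limit; Mki67 in comparison 2 and Cenpe in comparison 3 were lost too. Subtracting chromosome medians also gave 0 and 0 for these counts, with mitosis medians of -0.040 in comparison 1 and -0.40 in comparison 3 and a replication median of 0.30 in comparison 3. Among members past the adjusted p it turned the sign in comparison 1 for Rrm1 (0.023), E2f3 (-0.20), Ccna2 (0.36), Ccnb1 (-0.16), Bub1 (0.030), Mad2l1 (-0.044), Cdc25c (-0.033), Mki67 (0.10) and Kif20a (-0.065), and in comparison 2 for Mcm10 (0.0042) and E2f1 (0.00059), and of members not past it 4, 5 and 4 turned in comparisons 1, 2 and 3. Exchanged labels gave medians of 0.20 (replication), -0.096 (G1/S) and 0.083 (mitosis) in comparison 1, 0.34 and -0.29 (replication, mitosis) in comparison 2 and 0.051 and -0.49 in comparison 3.

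Leaving out each library in turn, the replication median ran from -0.23 to -0.16 in comparison 1 and 0.32 to 0.38 in comparison 3, and the mitosis median from -0.11 to -0.054 in comparison 1, -0.54 to -0.49 in comparison 2 and -0.35 to -0.26 in comparison 3. No called member lost its call. The G1/S median, which rests on 13 genes that differ in direction, ran from -0.0019 to 0.14 in comparison 1 and from -0.17 to 0.020 in comparison 3. Each group has 2 libraries of 1 line, and a group left with 1 library is assumed to vary like the others.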
